A study of Mus musculus with 12 samples.

Results

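Interferon-stimulated genes are genes that cells switch on when an interferon binds its receptor. The set examined here held 9 of them: Isg15, Ifit1, Ifit2, Ifit3, Irf7, Usp18, Rsad2, Oasl2 and Gbp2. They were measured on 12 Affymetrix arrays of mouse liver, and the probe sets used were those that the platform annotation assigns to 1 of these symbols alone. Of the 9 members, 8 had such a probe set, 11 probe sets in all, among 34945 probe sets for 18193 genes on the array. Isg15 had no probe set of its own, since its probe set is shared with Gm9706, and its level was not analysed here. Of the 8, 7 passed the filter on low signals and were tested among 14102 genes. Ifit2 did not pass.

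All mice were females that carry floxed Yap1 alleles (YAP fl/fl), 8 to 12 weeks old, and every mouse had received an AAV8 vector. Mice called KO received AAV8.TBG.PI.Cre.rBG, in which the hepatocyte promoter TBG drives the Cre recombinase. Mice called WT received AAV8.TBG.PI.eGFP.WPRE.bGH8, in which the same promoter drives a fluorescent protein. TCPOBOP, a synthetic agonist of the nuclear receptor CAR that makes hepatocytes divide, was given once by gavage in corn oil at 3 mg/kg, 10 days after the vector. Day 0 mice received the vector and no TCPOBOP. The groups were WT day 0 (n = 2 arrays), WT day 1 (1 pooled sample), WT day 2 (n = 3), KO day 0 (n = 2), KO day 1 (1 pooled sample) and KO day 2 (n = 3). No group went without a vector and none was left without TCPOBOP beyond day 0, so a response to the vector, to the gavage and to TCPOBOP cannot be told apart over time, and deletion of Yap1 and the vector's cargo cannot be told apart between genotypes. The labels do not say that every array is a separate animal, so p-values measure the spread between these arrays, which may be technical.

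Type I interferons bind a receptor made of Ifnar1 and Ifnar2, and kinases on the receptor then activate the complex ISGF3, which holds STAT2 and IRF9 and binds the interferon-stimulated response element (ISRE) in the promoters of its targets. Interferon gamma acts mainly through another element, the gamma-activated site (GAS). In liver, vectors, viruses and nucleic acids sensed by hepatocytes, Kupffer cells or plasmacytoid dendritic cells can all start this programme.

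The promoter sequences are shown because they carry the element through which these genes are known to respond. RefSeq windows of 300 bases (250 before the start site and 50 from it on, build GRCm38.p6) matched 8 of the 9 members, in 9 windows, and Usp18 was not matched. The core searched for ISRE was GAAANNGAAA on either strand, which reads TTTCNNTTTC on the other. It was found in the windows of 5 of these 8 members, and in 3.44% of all 32851 windows. The core searched for GAS, TTCNNNGAA, which reads the same on both strands, was found in 1 of the 8, Ifit2, and in 8.30% of all windows. The sequences below run 5′ to 3′ in the direction of the gene, with the ISRE core in capitals.
Rsad2 (chr12:26456453-26456702, minus strand): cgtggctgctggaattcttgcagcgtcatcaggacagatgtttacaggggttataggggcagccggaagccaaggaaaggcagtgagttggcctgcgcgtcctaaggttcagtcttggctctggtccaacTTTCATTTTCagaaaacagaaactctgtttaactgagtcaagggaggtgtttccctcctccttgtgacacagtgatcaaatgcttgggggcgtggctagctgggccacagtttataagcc
Isg15 (chr4:156200860-156200911, minus strand): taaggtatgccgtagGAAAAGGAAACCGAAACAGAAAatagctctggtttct
Ifit1 (chr19:34640770-34640828, plus strand): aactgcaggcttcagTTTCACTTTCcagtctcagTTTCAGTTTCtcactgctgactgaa
Ifit3 (chr19:34583363-34583392, plus strand): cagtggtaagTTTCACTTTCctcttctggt
Gbp2 (chr3:142620589-142620628, plus strand): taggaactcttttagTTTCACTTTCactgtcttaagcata

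The Rsad2 core began 120 bases before the start site, and the Gbp2 core 59 bases before it. Ifit1 held 2 cores, at 104 and 85 bases, and Ifit3 held 2, at 156 and 122 bases, of which the first is shown. The Ifit3 window uses a start site at 34583529, whereas the RefSeq gene begins at 34583119, so the stretch shown lies inside that gene. The 3 overlapping cores of Isg15 began 78, 72 and 66 bases before its start site. Irf7 and Oasl2 had no match to either core in their windows, which says only that these letters are not there.

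The values are MAS5 signals, a summary of brightness per probe set. Each array had a trimmed mean of the same size, 499.9 units between percentiles 2 and 98. Array medians ran from 231.6 to 277.0 units, and probe sets that exceeded the median of 2 or more arrays were kept. Differences are given on the scale log2(signal + 16), which understates the change of dim genes, with their SE from limma. A gene was called when its limma p, adjusted by Benjamini-Hochberg over all 14102 genes, was under 0.05. Yap1, the targeted gene, read 999.2 to 1306.3 on the 6 WT arrays and 449.6 to 796.7 on the 6 KO arrays, with no overlap. Albumin (Alb), which marks hepatocytes, read 41725.8 or more on every array. The brightest signals of the KO day 2 arrays were lower than those of WT day 2 (48217.1 to 67456.6 against 103215.8 to 116917.6 units), so a quantile-normalized value is given beside results on KO day 2 whose call it ended or whose value it moved by over 1.5 times.

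**Figure D1:**
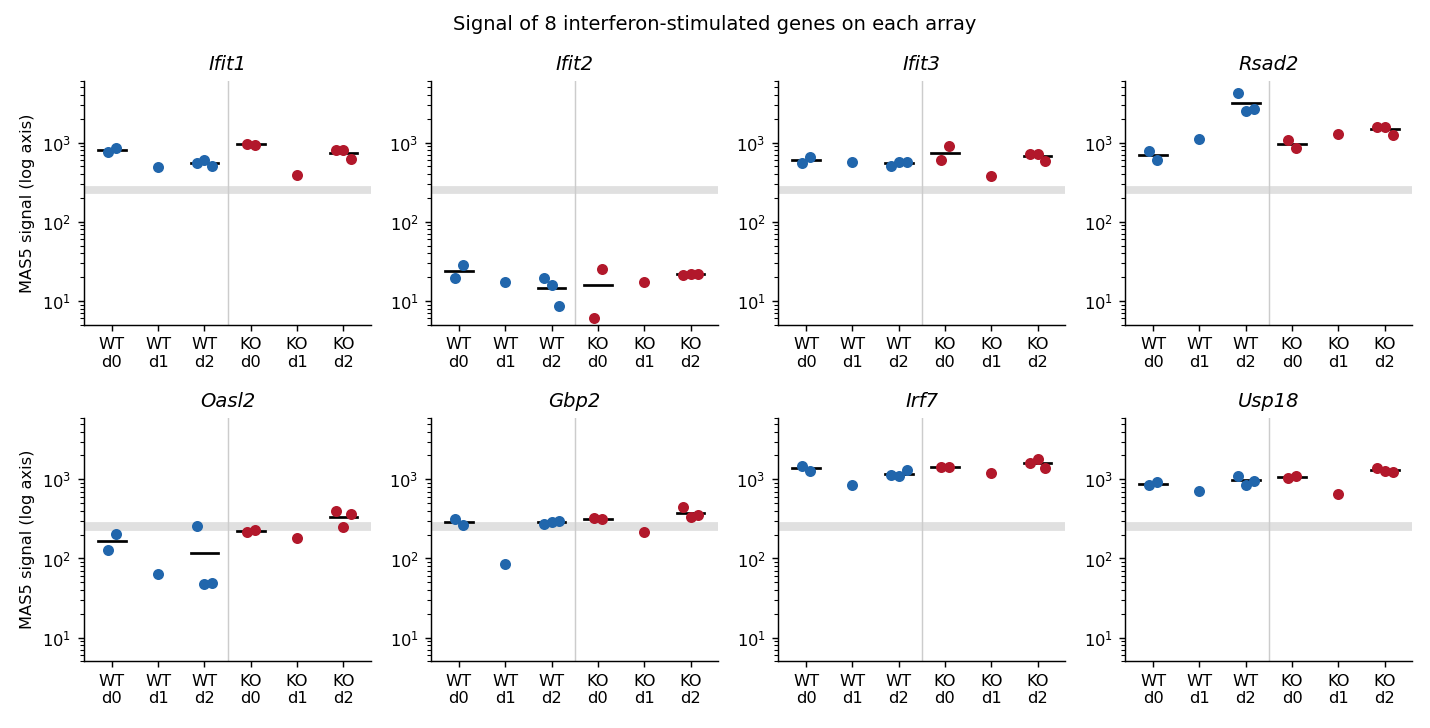
Each point is the MAS5 signal of 1 gene on 1 array (log axis, units as deposited) in the WT (blue) and KO (red) groups at day 0, 1 and 2 (d0, d1, d2). Black lines are group means, and the grey band is the range of the array medians. Rsad2 stands highest at WT day 2 (2513.9 to 4223.5), Ifit2 lies below the band on all 12 arrays, and Oasl2 spans it.

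Rsad2 was the 1 tested member called by limma in any comparison. It encodes viperin, a radical SAM enzyme of the endoplasmic reticulum that makes an antiviral nucleotide. On its brightest probe set (1436058_at), WT livers read 784.1 and 598.2 at day 0, 1117.8 in the day 1 pool, and 4223.5, 2513.9 and 2655.8 at day 2. KO livers read 1077.6 and 845.5 at day 0, 1286.5 in the day 1 pool, and 1585.7, 1559.1 and 1254.2 at day 2. Every WT day 2 array lay above every other array. The KO day 2 arrays lay above KO day 0, and the KO day 1 pool lay within their range. The WT day 1 pool lay above both day 0 groups and below all 3 KO day 2 arrays.

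Between day 0 and day 2 Rsad2 rose by 2.13 ± 0.23 (log2, SE) in WT livers, a 4.37-fold increase (limma adjusted p = 9.8e-05, n = 2 and 3). It was the 1 of 7 tested members called in that comparison, in which 12.6% of all genes were called. In KO livers its difference was 0.60 ± 0.23 (1.52-fold, limma adjusted p = 0.135, n = 2 and 3), and none of the 7 members was called there, against 8.69% of all genes. At an unadjusted p under 0.05, Rsad2 was the 1 KO member that passed, and Rsad2 and Ifit1 were the 2 WT members. The share of all genes at that threshold was not counted, so these counts are no result about the members. The KO change minus the WT change was -1.52 ± 0.32 (95% confidence interval -2.22 to -0.82, limma adjusted p = 0.031), and again Rsad2 was the 1 member of 7 called, where 3.15% of all genes were. That call was lost without any filter on low signals (adjusted p = 0.0508), with limma's variance model run without trend and robust settings (adjusted p = 0.0948), and when any 1 of 6 of the 10 day 0 and day 2 arrays was left out. These were both WT day 0 arrays, replicate 1 of KO day 0 and all 3 KO day 2 arrays, with values of -1.71 to -1.33 and adjusted p from 0.0516 to 0.121.

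The KO and WT livers differed in Rsad2 at day 2 by -1.05 ± 0.20 (2.08-fold lower in KO, limma adjusted p = 0.011, n = 3 each). After quantile normalization the difference was -0.95 (adjusted p = 0.0199). At day 0 the KO arrays lay above the WT arrays by 0.47 ± 0.25, which was not called (limma adjusted p = 0.661, n = 2 each).

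The array carries 3 probe sets for Rsad2, and they differed in how far they moved. On 1421008_at the WT signals were 497.0 and 433.7 at day 0, 650.3 in the day 1 pool, and 1184.0, 724.3 and 1027.3 at day 2. The KO signals of that probe set were 482.4 and 607.3, then 625.4, then 891.0, 779.4 and 518.1. On 1421009_at the WT signals were 736.7 and 747.6, then 1102.9, then 1588.8, 984.7 and 1195.4, and the KO signals were 779.1 and 1083.9, then 884.4, then 1291.5, 794.6 and 919.3. In WT livers day 2 lay above day 0 without overlap on all 3 probe sets, whereas KO and WT day 2 arrays overlapped on both dimmer ones.

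With each of 23038 kept probe sets tested on its own, the WT increase was 1.02 ± 0.26 on 1421008_at (limma adjusted p = 0.0265) and 0.72 ± 0.24 on 1421009_at (adjusted p = 0.0804). The day 2 difference between genotypes was -0.42 ± 0.23 (adjusted p = 0.269) and -0.32 ± 0.22 (adjusted p = 0.361), and the KO change minus the WT change was -0.64 ± 0.37 and -0.63 ± 0.34 (adjusted p = 0.36 and 0.334). When the log2 values of the 3 Rsad2 probe sets were averaged, the WT increase was 1.29 (limma adjusted p = 0.00242), the genotype difference at day 2 was -0.60 (adjusted p = 0.0747) and the KO change minus the WT change -0.93 (adjusted p = 0.123). The WT increase of the brightest probe set was called in every alternative run, whereas the lower KO level was called on that probe set alone. Over the 12 arrays the log2 signals of the 3 probe sets correlated pairwise at 0.721 to 0.889.

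**Figure D2:**
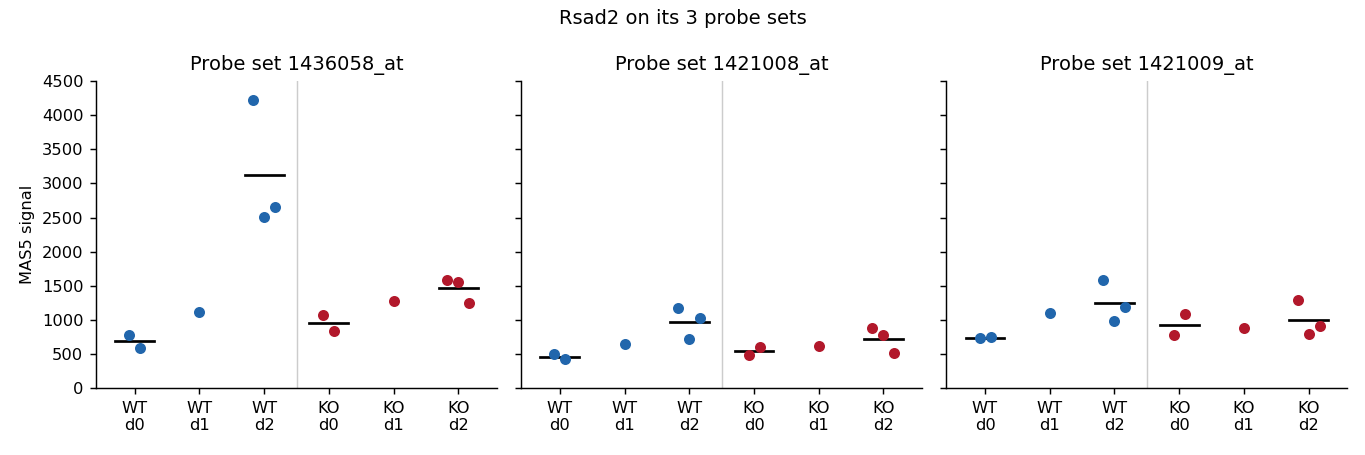
MAS5 signal (linear axis) of the 3 Rsad2 probe sets on each array, by genotype (WT blue, KO red) and day, with black lines at group means. WT day 2 lies above WT day 0 on each probe set, and the gap between WT and KO at day 2 is clear of overlap on 1436058_at alone.

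The IFIT proteins bind viral RNA that lacks the host's cap methylation and block its translation. Ifit1 read 761.9 and 847.2 at WT day 0, 498.5 in the WT day 1 pool, and 550.4, 600.8 and 499.6 at WT day 2. In KO livers it read 972.0 and 925.0, then 394.1, then 799.2, 809.9 and 626.2. In both genotypes the day 2 arrays lay below those of day 0, with differences of -0.54 ± 0.18 in WT (1.45-fold, limma adjusted p = 0.07) and -0.35 ± 0.18 in KO (adjusted p = 0.273), and neither difference was called. At day 2 the 3 KO arrays lay above the 3 WT arrays, with a difference of 0.42 ± 0.16 (limma adjusted p = 0.111).

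Ifit3 read 551.1 and 652.0 at WT day 0, 564.7 in the day 1 pool, and 501.5, 566.3 and 569.1 at day 2. Its KO signals were 600.7 and 899.2, then 379.5, then 724.4, 712.4 and 580.6. Day 0 and day 2 overlapped in each genotype. The KO minus WT difference at day 2 was 0.29 ± 0.19 (limma adjusted p = 0.332), and 0.16 after quantile normalization. Ifit2 read 6.1 to 28.1 units on the 12 arrays, below every array's median, so it gave no test.

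Oasl2, a relative of the oligoadenylate synthetases with a ubiquitin-like end, was dim and variable. It read 127.5 and 206.0 at WT day 0, 63.2 in the day 1 pool, and 253.6, 47.6 and 48.5 at day 2, and in KO livers 218.8 and 227.1, then 180.9, then 392.5, 248.9 and 361.6. It passed its array's median on 3 arrays, WT day 2 replicate 1 and KO day 2 replicates 1 and 3, so it entered the test mostly through the group where it was high, and the filter of 6 arrays left it out. The fitted KO minus WT difference at day 2 was 1.74 ± 0.57, which was not called (limma adjusted p = 0.076). Since 2 of the 3 WT signals lay far below the array medians, its size depends on the constant added before the log (1.95 with 1 unit, 1.31 with 64 units) and is no estimate of a fold. Replicate 1 of WT day 2 lay inside the KO range, and without it the difference was 2.43 (limma adjusted p = 0.0203). The arrays on which Oasl2 passed its median are then KO day 2 arrays alone. The WT day 2 signals left are 47.6 and 48.5, so that p is no support for a difference.

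Gbp2 encodes a guanylate-binding GTPase that attacks intracellular pathogens and answers interferon gamma as well. Its brighter probe set (1418240_at) read 318.1 and 262.7 at WT day 0, 84.8 in the day 1 pool, and 274.9, 287.8 and 296.1 at day 2. In KO livers it read 323.4 and 310.6, then 218.4, then 447.2, 336.9 and 356.0. The 2 genotypes overlapped at day 0 and did not at day 2, with a difference of 0.38 ± 0.26 (limma adjusted p = 0.357), and 0.20 after quantile normalization. The second probe set (1435906_x_at) read 109.1 to 260.9 units over the 12 arrays, and its WT and KO day 2 arrays overlapped.

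Irf7 and Usp18 regulate the programme. IRF7 is the transcription factor that amplifies interferon production, and USP18 removes ISG15 from proteins and restrains signalling from the type I receptor. Irf7 read 1470.3 and 1269.5 at WT day 0, 840.7 in the day 1 pool, and 1144.5, 1102.7 and 1296.2 at day 2. Its KO signals were 1441.1 and 1448.0, then 1212.1, then 1606.4, 1783.4 and 1391.6. The WT day 2 arrays lay below all KO day 2 arrays, with a difference of 0.42 ± 0.13 (limma adjusted p = 0.0655).

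Usp18 read 849.3 and 919.2 at WT day 0, 712.0 in the day 1 pool, and 1092.2, 852.4 and 965.6 at day 2. Its KO signals were 1038.8 and 1113.2, then 660.2, then 1396.8, 1281.4 and 1253.2. At day 2 the KO arrays lay above the WT arrays by 0.43 ± 0.13 (limma adjusted p = 0.062). Neither regulator was called in any of the 5 comparisons, and the 95% confidence intervals of the day 2 difference were 0.14 to 0.71 for Irf7 and 0.14 to 0.72 for Usp18.

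On the deposited scaling at day 2, then, 5 of the 7 tested members (Ifit1, Ifit3, Irf7, Usp18 and Gbp2) lay higher in KO than in WT livers with no overlap, where 20.1% of all genes did. Rsad2 lay lower with no overlap, where 16.1% of all genes did, and Oasl2 overlapped. The day 2 array medians did not overlap either (231.6 to 244.5 units in WT and 259.9 to 277.0 in KO). Overlap was not recounted in other scalings, so these separations are given for the deposited scaling only. By the adjusted test, Rsad2 was the 1 member called at day 2, against 9.22% of all genes. At an unadjusted limma p under 0.05, 5 of the 7 passed: Rsad2, Usp18, Irf7, Oasl2 and Ifit1. Oasl2 entered the test mostly through the group where it was high, so its p is no support. The share of all genes under that threshold was not counted, so this count is no result about the members. The median KO minus WT difference of the 7 was 0.42, against 0.09 over all genes and 0.17 over the 10627 genes whose mean log2 signal lay in the members' range of 7.50 to 10.46. After quantile normalization the members' median was 0.30 and that of all genes 0.05, and after centring each array on its median they were 0.25 and -0.08. The same 6 members, Oasl2 among them, were above 0 in the 3 scalings, and Oasl2 also enters these medians.

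Before TCPOBOP all 7 tested members had KO means above the WT means, by 0.08 (Irf7) to 0.47 (Rsad2), and Ifit1, Usp18, Rsad2 and Oasl2 did so with no overlap between the 2 arrays of each group, where 16.6% of all genes did. None of the 7 was called by limma, and none passed at an unadjusted p under 0.05. Over all genes 0.17% were called at day 0. The intervals were wide: the 95% confidence interval of the day 0 difference was -0.19 to 0.66 for Ifit1, -0.08 to 0.63 for Usp18 and -1.10 to 1.94 for Oasl2. The KO change minus the WT change of the 6 members other than Rsad2 ran from 0.002 (Ifit3) to 1.32 (Oasl2), and after quantile normalization from -0.17 (Ifit3) to 1.16 (Oasl2). None was called in either scaling.

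**Figure D3:**
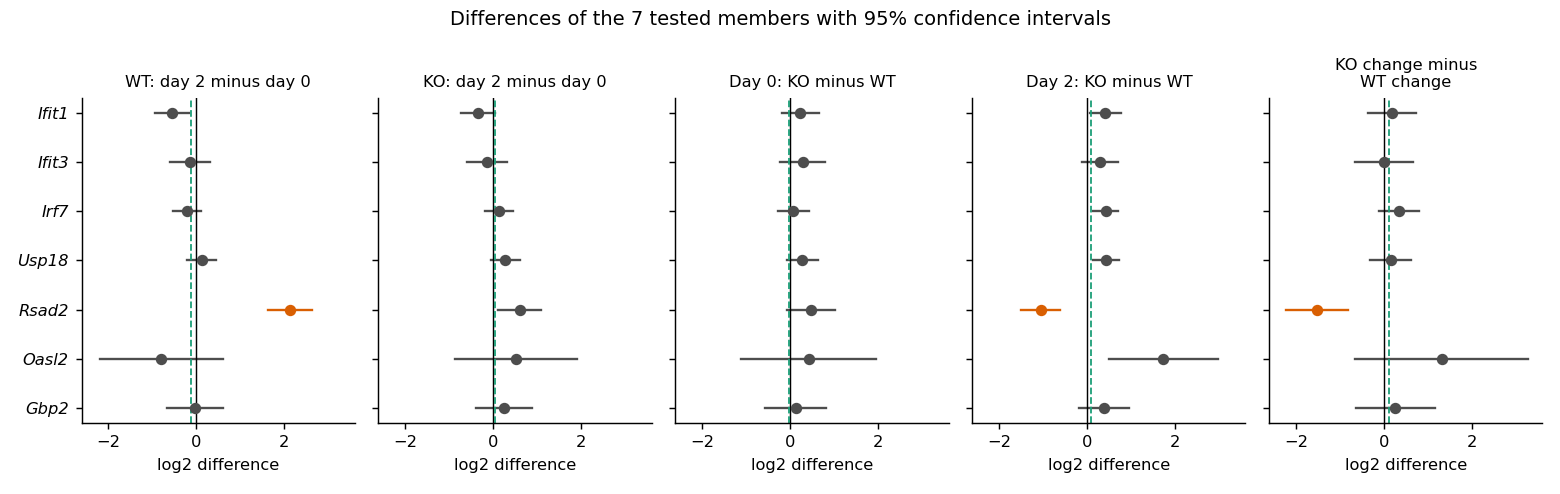
Points are log2 differences of the 7 tested members in the 5 comparisons, and bars are 95% confidence intervals from limma. Orange marks a limma adjusted p under 0.05, the solid line is 0 and the dashed green line is the median of all 14102 genes. Rsad2 is the 1 member in orange, and it lies on the opposite side of 0 from the other 6 at day 2.

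The day 1 samples were 1 pool per genotype, so they gave no test. In the WT pool 6 of the 7 tested members lay below the day 0 mean, from -0.08 (Ifit3) to -1.60 (Gbp2), with Ifit1 at -0.67, Irf7 at -0.69 and Oasl2 at -1.17. Oasl2 and Gbp2 were past 2-fold lower, as were 6.98% of all genes. In that pool they read 63.2 and 84.8, far below its median of 248.0, so these sizes are no estimates of a fold. Oasl2 lay below the median on both WT day 0 arrays too. The second Gbp2 probe set fell less, from 222.9 and 218.0 at WT day 0 to 137.1 in the pool. In the KO pool 6 of the 7 lay lower, from -0.25 (Irf7) to -1.23 (Ifit1), and Ifit1 was past 2-fold lower, as were 6.74% of all genes. Rsad2 lay higher in both pools, by 0.69 in WT and 0.42 in KO. The median over all genes was -0.07 in the WT pool and -0.05 in the KO pool. The 2 genotypes share no day 0 arrays, but each pool is a single hybridization.

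Over the 12 arrays the 6 tested members other than Rsad2 had positive correlations for all 15 pairs (0.27 to 0.852, median 0.605). The 6 pairs that include Rsad2 had correlations from -0.481 to 0.166. These are descriptions over arrays that share groups and scaling, and pairs of other genes were not counted for comparison. Among 14095 other tested genes, those most like the mean of the 7 standardised members were Slc41a1 (r = 0.897), Samsn1 (0.877), Themis3 (0.877), Vapb (0.876), Hyal4 (0.872) and Lrig1 (0.871), each over 12 arrays.

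Upstream of the members, the interferons themselves gave no call. Of 19 interferon genes listed, 10 had a probe set of their own, 5 passed the filter and none was called by limma in any comparison. At an unadjusted p under 0.05, 0 to 2 of the 5 passed, and the share of all genes there was not counted. The median KO minus WT difference of these 5 was -0.63 at day 0 and 0.48 at day 2, against -0.03 and 0.09 over all genes. Their KO change minus the WT change had a median of 0.74, against 0.11 over all genes, and lay above 0 in all 5. After centring each array on its median, 4 of the 5 lay above 0 and their median was 0.55, and after quantile normalization their median was 0.56. Ifnb1, the type I interferon made first by most cells, read 41.9 to 245.2 units, and Ifng, the interferon of T and NK cells, 18.0 to 193.0 units. Both lay below the array median on all 12 arrays.

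Among the 6 receptor subunits, Ifnar2, a chain of the type I receptor, rose in both genotypes. It read 3297.0 and 2936.9 at WT day 0 and 5601.7, 4889.1 and 5131.5 at WT day 2, a difference of 0.74 ± 0.18 (limma adjusted p = 0.0216). In KO livers it read 2855.9 and 1821.8 at day 0 and 3592.7, 3404.4 and 4439.3 at day 2, a difference of 0.73 ± 0.18 (adjusted p = 0.0294). Averaging its probe sets ended both calls (0.46, adjusted p = 0.505 in WT and 0.27, adjusted p = 0.753 in KO). With 1 array left out the difference was 0.65 to 0.82 in WT and 0.41 to 1.05 in KO livers. The WT call was then lost unless the array was WT day 2 replicate 2, and the KO call was lost without KO day 0 replicate 2 or KO day 2 replicate 1 or 3. The other 5 subunits were not called.

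Of the 9 signal transduction genes tested, none was called by limma in any comparison. At an unadjusted p under 0.05, 1 or 2 passed in each, and the share of all genes there was not counted. Stat2, a subunit of ISGF3, had a difference from day 0 to day 2 of 0.01 ± 0.29 in WT and -0.67 ± 0.29 in KO livers (adjusted p = 0.99 and 0.196). Irf9, its DNA-binding subunit, had differences of 0.60 ± 0.25 and -0.20 ± 0.25 (adjusted p = 0.142 and 0.692). Its WT signals were 325.4 and 346.1 at day 0 and 483.5, 519.7 and 544.4 at day 2, with no overlap. Of the 6 interferon regulatory factors tested beside Irf7 and Irf9, none was called by limma. At an unadjusted p under 0.05, 0 or 1 passed, again with no share of all genes counted.

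Among 13 tested sensors of nucleic acids and their adaptors, Ikbke moved most. It encodes IKK epsilon, a kinase that phosphorylates IRF3 and IRF7. It read 16.4 and 20.6 at WT day 0, 1112.9 in the WT day 1 pool, and 770.4, 660.6 and 622.2 at WT day 2. In KO livers it read 51.8 and 59.3, then 1096.6, then 254.1, 395.4 and 192.1. The day 1 pools of both genotypes lay close together, and at day 2 the KO arrays lay between day 0 and WT day 2 with no overlap on either side.

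Ikbke was called higher at day 2 than at day 0 in WT (limma adjusted p = 2.09e-05) and in KO livers (adjusted p = 0.00609). Its day 0 signals lay far below the array medians and it passed the filter through later arrays, so the fitted sizes are no estimates: in WT livers 4.34 became 5.14 with 1 unit added and 3.18 with 64 units, and in KO livers 2.00 became 2.25 and 1.49. Set against the medians of the day 0 arrays, WT day 2 was at least 2.53-fold higher and KO day 2 at least 1.05-fold higher. The KO bound rests on replicate 2 (395.4). The KO day 0 medians were 244.7 to 269.0, and replicate 1 (254.1) lay between them and replicate 3 (192.1) below them. It was lower in KO than in WT livers at day 2 by -1.29 ± 0.34 (adjusted p = 0.0344), a call lost with 1 unit added (-1.34, adjusted p = 0.0507) and when any 1 of the 6 day 2 arrays was left out (-1.56 to -1.07). The KO change minus the WT change was also called (adjusted p = 0.0393), but it subtracts day 0 signals that lie below the medians in both genotypes, so no size is given. That call was lost when any array but KO day 0 replicate 1 was left out. Mavs, the mitochondrial adaptor of the RNA sensors, fell by 0.58 ± 0.13 in WT livers (adjusted p = 0.0117), a call lost with arrays centred on their medians and without either WT day 0 array. It was higher in KO livers at day 2 by 0.43 ± 0.12 (adjusted p = 0.0408), a call lost when any 1 of the 6 day 2 arrays was left out (0.40 to 0.49).

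**Figure D4:**
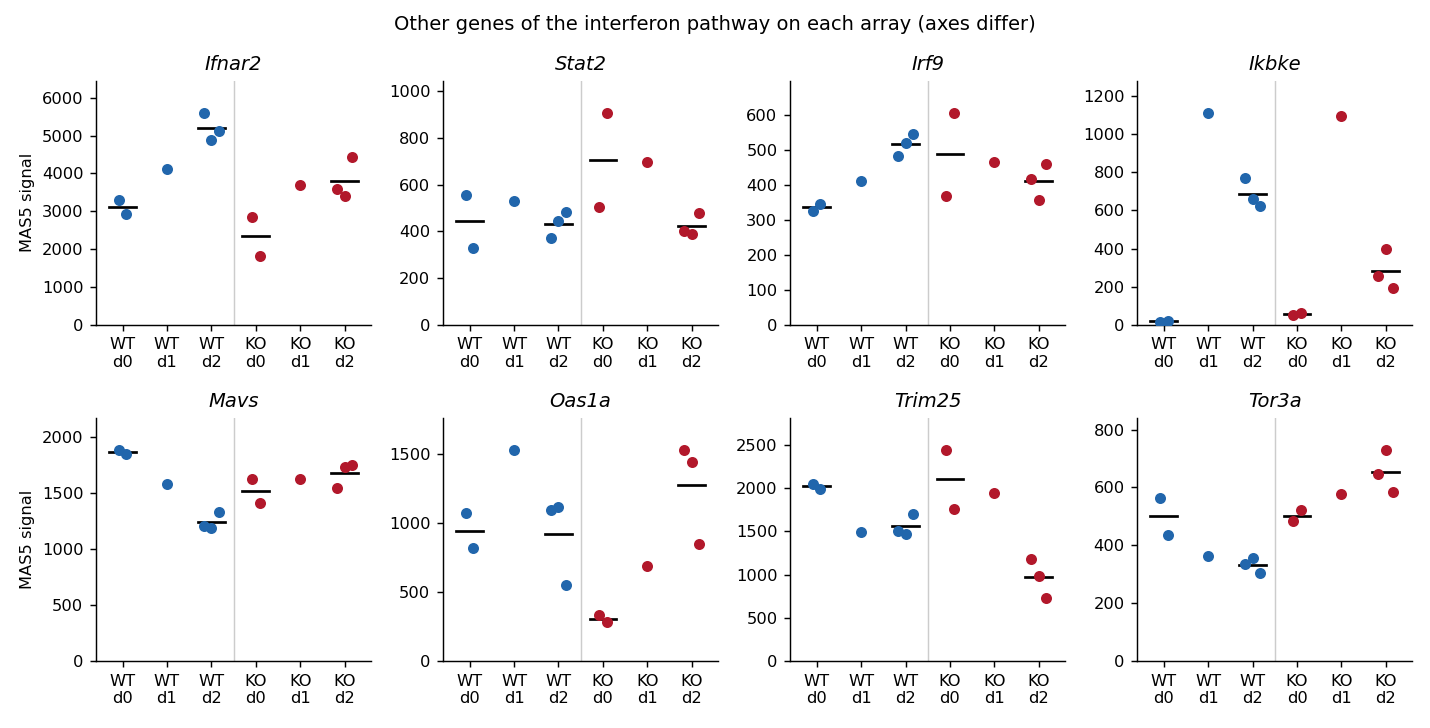
MAS5 signal (linear axes that start at 0 and differ between panels) of 8 pathway genes on each array, by genotype (WT blue, KO red) and day, with black lines at group means. Ikbke reads about the same in both day 1 pools (1112.9 and 1096.6) and higher in WT than in KO livers at day 2, while Oas1a is lowest at KO day 0 (334.5 and 282.2).

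A wider list of 58 interferon-induced genes, of which 46 were tested, had 2 called genes in WT livers, where 12.6% of all genes were called, and 4 in KO livers, where 8.69% were. In WT livers none was higher at day 2 and 2 were lower. These were Herc6, a ligase that attaches ISG15, at -0.64 ± 0.19 (limma adjusted p = 0.0483) and Iigp1, an immunity-related GTPase, at -0.42 ± 0.12 (adjusted p = 0.0429). The Herc6 call was lost in 8 of 11 alternative settings and when any array but WT day 0 replicate 2 was left out (-0.91 to -0.36), and its value was 0.41 with probe sets averaged. The Iigp1 call was lost when any 1 of the 5 arrays was left out (-0.54 to -0.30). In KO livers 1 gene was higher and 3 were lower at day 2. The list's median was 0.05 in WT and 0.01 in KO livers, against -0.11 and 0.05 over all genes.

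Oas1a, an oligoadenylate synthetase that activates RNase L, was the KO gene that rose, by 1.95 ± 0.32 (limma adjusted p = 0.00271). It read 334.5 and 282.2 at KO day 0, 686.5 in the day 1 pool, and 1532.5, 1442.9 and 846.8 at day 2, against 1071.5 and 820.4, then 1530.8, then 1096.4, 1117.2 and 550.7 in WT livers. The KO day 0 arrays lay below all others. The KO change minus the WT change was 2.04 ± 0.45 (adjusted p = 0.0365), a call lost without either WT day 0 array, WT day 2 replicate 3, KO day 0 replicate 2 or KO day 2 replicate 1 or 2 (1.72 to 2.31 with an array left out).

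The 3 KO genes that fell were Trim25 (-1.11 ± 0.20), a ligase that activates the RNA sensor RIG-I, Irgm2 (-0.85 ± 0.21) and Iigp1 (-0.65 ± 0.12), with limma adjusted p of 0.00442, 0.0258 and 0.00598. Irgm2, an immunity-related GTPase, lost its call when any KO array but day 2 replicate 2 was left out (-0.96 to -0.70). At day 2 Trim25 was lower in KO than in WT livers (-0.70 ± 0.18, adjusted p = 0.0314), a call lost when any array but KO day 2 replicate 1 was left out (-0.86 to -0.52). Tor3a, an ATPase of the endoplasmic reticulum induced by interferon, was higher in KO livers at day 2 (0.94 ± 0.19, adjusted p = 0.0124), a call lost without KO day 2 replicate 2 (0.86 to 1.02 with an array left out). With its probe sets averaged, Trim25 was at -0.15 in KO livers (adjusted p = 0.695) and at -0.49 between genotypes at day 2 (adjusted p = 0.0985), and neither was called.

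Of 12 tested genes for antigen processing and MHC class I, Psme1, a proteasome activator subunit, rose in WT (0.70 ± 0.14, limma adjusted p = 0.00756) and in KO livers (0.64 ± 0.14, adjusted p = 0.0167). The WT call was lost without WT day 0 replicate 1, and the KO call without KO day 0 replicate 1 or KO day 2 replicate 2 (0.60 to 0.76 in WT and 0.47 to 0.81 in KO with an array left out). In KO livers 3 abundant genes of the class I molecule fell: B2m by 0.77 ± 0.11, H2-K1 by 0.80 ± 0.15 and H2-D1 by 0.55 ± 0.12 (adjusted p = 0.00116, 0.00579 and 0.0129). After quantile normalization these differences were -0.39, -0.48 and -0.38. The H2-D1 call was lost without KO day 2 replicate 1 (-0.61 to -0.49 with an array left out). At day 2 B2m and H2-K1 were lower in KO than in WT livers by -0.52 ± 0.10 and -0.52 ± 0.13 (adjusted p = 0.0106 and 0.033), but by -0.07 and -0.11 after quantile normalization, where neither was called. The H2-K1 call was also lost without WT day 2 replicate 1 or 3 or KO day 2 replicate 1 or 2 (-0.60 to -0.42). The KO change minus the WT change of B2m was -0.82 ± 0.16 (adjusted p = 0.0221) and -0.07 after quantile normalization, and its call was lost without either WT day 0 array, WT day 2 replicate 1 or KO day 2 replicate 1 or 2 (-0.88 to -0.74). H2-K1 and H2-D1 are near-identical relatives whose probes may share signal.

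These are whole-liver RNA samples, in which fewer cells of a type and less RNA per cell cannot be told apart. Some markers of several cell types were called beside the members. With Rsad2 in WT livers, 3 of 9 tested hepatocyte markers were higher at day 2 (Alb, Apoa1 and Serpina1c, but none after quantile normalization, where 3 were lower). Of the other lists there, 1 of 10 Kupffer cell, 1 of 5 B cell, 2 of 8 sinusoidal endothelial (1 after quantile normalization) and 2 of 7 stellate cell markers were lower. In that comparison 12.6% of all genes were called, so such small counts are no result about a cell type. None of the 5 plasmacytoid dendritic cell, 3 monocyte, 3 neutrophil or 6 T and NK cell markers was called. The summed signal of the Kupffer cell markers was 15820 to 16803 at WT day 0 and 13902 to 14213 at WT day 2, and that of the plasmacytoid dendritic cell markers 4050 to 4418 and 3650 to 4021.

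In KO livers 8.69% of all genes were called between day 0 and day 2. Beside the class I genes, 7 of 9 hepatocyte markers were lower at day 2 than at day 0, with a list median of -0.74. After quantile normalization 2 were (Cps1 and Asgr1), with a median of -0.08. Of the Kupffer cell markers Clec4f and C1qb were lower (-0.95 ± 0.23 and -1.63 ± 0.15), as were the stellate cell markers Reln and Dcn, and Cd8a of T cells was higher (0.80 ± 0.17). These calls also held after quantile normalization, and no marker of the other 5 lists was called. Of the 10 Kupffer cell markers 4 lay above 0, with a list median of -0.03, and of the 7 stellate cell markers 3 did.

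In the KO change minus the WT change 3.15% of all genes were called. Beside Rsad2 at -1.52, 4 of 9 hepatocyte markers were called lower there: Alb (-1.54), Serpina1c (-1.51), Apoa1 (-1.37) and Ttr (-0.94). After quantile normalization these were -0.23, -0.14, -0.09 and 0.27 and none of them was called (1 other marker was called higher), whereas Rsad2 was at -1.45 (limma adjusted p = 0.0443). C1qb was lower (-1.05, and -1.17 after quantile normalization), and Gzma was higher (1.78, and 1.61 after quantile normalization, where it was not called). Of the 10 Kupffer cell markers 6 lay above 0, with a list median of 0.03.

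Between genotypes at day 2, where 9.22% of all genes were called, 4 of 9 hepatocyte markers were called lower in KO livers. The median of that list was -0.33. After quantile normalization none was called lower and 2 were called higher, with a median of 0.11. Their summed signal was 476870 to 548910 in WT and 270230 to 340350 in KO livers. Of 10 Kupffer cell markers 3 were lower (Clec4f, C1qa and C1qb, but not Clec4f after quantile normalization), with sums of 13902 to 14213 in WT and 9616 to 13776 in KO livers. However, 5 of the 10 lay above 0, and the list's median was -0.05. Gzma, of cytotoxic lymphocytes, was higher by 1.20 ± 0.26 (limma adjusted p = 0.017), the 1 of 6 T and NK cell markers called, with sums of 2690 to 3482 in WT and 3914 to 4682 in KO livers. No plasmacytoid dendritic cell marker was called, and their sums overlapped (3650 to 4021 and 3459 to 5375). Of the B cell markers Ighm was called lower, and S100a4 (monocytes) and Clec4g (sinusoidal endothelium) were called higher. After quantile normalization Ighm (-0.66, adjusted p = 0.0622) and S100a4 (1.40, adjusted p = 0.0777) were not called. No marker that passed the filter was read at 0, whereas Itgam, Chil3, S100a9, Cd3d, Cd4, Gzmb and Hand2 did not pass it. The part of these cell types in the members' differences was not tested.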

How the data were processed

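Liver RNA (Trizol, biotin-labelled) was hybridized to 12 Affymetrix arrays, 1 colour each. The authors deposited signal intensity per probe set, summarised with MAS5 per the submitters' processing notes, with the version not given in the sources used here. Of 45101 probe sets, 34945 name 1 gene, 932 several, 9160 none and 64 are controls, by a platform annotation that can be old. Here 16 units were added, log2 was taken, and the brightest kept probe set (highest mean) stood for its gene. One limma fit (version 3.58.1, R 4.3.3, eBayes with its trend and robust options, residual degrees of freedom 6) of the 6 group means gave the 5 comparisons, and the single day 1 pools have no spread of their own. The fit was tested on simulated data. The number of arrays limits the precision.

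The text names all members, up to 4 called genes per further list and comparison, Stat2 and Irf9, marker genes called, and the 6 genes most like the members. One further gene of the rule is not reported here. The members and lists were chosen with earlier results of these data known. Alternatives covered normalization, pseudocount, filter, probe set choice, variance model, arrays in the fit, replicate block and each array left out. No 2 arrays were duplicates (highest correlation 0.950). Isg15 was left out of the values, since it has no probe set of its own.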

Additional observations from a re-analysis of the deposited data

Results flagged for a closer look

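The change of Rsad2 from day 0 to day 2 was called different between genotypes by the interaction term of the limma fit: the KO change minus the WT change was -1.52 on the log2 scale (adjusted p = 0.031), with a rise of 2.13 in WT and a difference of 0.60 in KO livers. That call was lost in 3 of 11 other settings and when any 1 of 6 of the 10 arrays was left out. In the same comparison 4 of 9 hepatocyte markers were called lower, by as much as -1.54 (Alb), and none was called lower after quantile normalization. On its other probe sets the same term was -0.64 and -0.63 and was not called. The day 0 levels differed in the other direction by 0.47, which was not called, and that difference enters the term.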

How the results depend on the processing

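The number of members called was 1 of 7 in WT livers (day 2 minus day 0) under all alternatives run. In KO livers it was 0, and 1 with a replicate block (Rsad2, 0.71, adjusted p = 0.0368). The titles' replicate numbers did not pair the arrays: deviations of same-numbered arrays correlated at -0.0241 to 0.0345 (13 pairs) and others at -0.0576 to 0.0372 (24 pairs). Under the replicate block the calls over all genes became 830 higher and 579 lower in WT livers and 94 and 192 for the difference of the changes. At day 0 the count of members was 0 throughout. At day 2 it was 1 between genotypes, 0 with probe sets averaged and 1 to 2 with an array left out. For the difference of the changes it was 1, then 0 with no filter, 0 with probe sets averaged, 0 without trend and robust settings, and 0 to 1 with an array left out. Of the single member values, 561 kept their direction and their side of the threshold, 17 changed sign, 2 became called and 10 lost their call. All 17 sign changes of member values were of values not called in either setting. Gbp2 in WT livers was 0.12 after quantile normalization, 0.11 after centring, and -0.15 to 0.12 with an array left out. For the difference of the changes, Ifit3 was -0.17 after quantile normalization, -0.19 after centring, -0.001168 with 64 units added, and -0.28 to 0.29 with an array left out, and after centring Ifit1 was -0.001128 and Usp18 -0.03292. With an array left out, Ifit3 in KO livers was -0.42 to 0.15, Irf7 at day 0 -0.025 to 0.18 and Gbp2 at day 0 -0.0050 to 0.26. Beside the members, Herc6 in WT livers, called lower in the main fit, was 0.41 with probe sets averaged. Stat2 in WT livers was -0.078 with the replicate block and -0.36 to 0.37 with an array left out, Stat2 between genotypes at day 2 -0.14 to 0.050, and Irf9 in KO livers -0.55 to 0.15. Over all genes the calls numbered 1782 in WT livers (880 to 1458 with an array left out), 1225 in KO livers (801 to 1309 under other settings, 777 to 1253 with an array left out), 24 at day 0 (0 to 25, and 7 to 134), 1300 between genotypes at day 2 (748 to 1599, and 408 to 979) and 444 for the difference of the changes (76 to 535, and 57 to 698). Centring each array on its median moved the split of higher and lower calls from 1024 and 758 to 1257 and 395 in WT livers, from 563 and 737 to 233 and 1366 between genotypes at day 2, and from 153 and 291 to 75 and 460 for the difference of the changes. The cause of these shifts was not tested. With 2 or 3 arrays a group, the number of arrays limits what can be called, and Oasl2 and Ifit2 read close to or below the array medians.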

Other observations

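By a ranking chosen after the values were seen, the genes whose log2 signal followed Rsad2 most closely over the 12 arrays, among 14101 tested genes, were Pgap2 (r = 0.942), Psmd8 (0.926), Tmem53 (0.923), 9530068E07Rik (0.923), Ulk2 (0.922) and Ywhaz (0.922). No member of the interferon-stimulated set was among them. The arrays share groups and scaling, and the correlations are descriptions.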
